A study of Rattus norvegicus with 16 samples.

Results

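The chemokine ligands Ccl2, Ccl5, Ccl19, Ccl21, Cxcl1, Cxcl2, Cxcl9, Cxcl10, Cxcl12 and Cxcl13 were followed through the messenger RNA of the rat ventral prostate, a lobe whose secretion depends on androgen. They were chosen by symbol, and all 10 were listed at both ages, among 19709 gene names that the tables of the 2 ages share. Control offspring (CTR) came from dams given 17% protein, and GLLP offspring from dams given 6% protein while pregnant and while nursing. Glands were taken at postnatal day (PND) 21 from 4 CTR and 3 GLLP offspring and at PND540 from 5 CTR and 4 GLLP offspring, and each gave 1 of the 16 libraries. The labels give no genotype, strain or litter, and the p-values speak only of spread among these glands, some of which may have shared a litter. The design sets the diets against each other at each age, the ages against each other on each diet, and the diet effects at the 2 ages against one another.

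Chemokines are small secreted proteins that guide leukocytes by binding receptors with 7 passes through the membrane. Named for the spacing of their first cysteines, the CC and CXC ligands fall into inducible, inflammatory members and homeostatic members that are made without infection. Ccl19, Ccl21 and Cxcl13 place lymphocytes in lymphoid tissue, Cxcl9 and Cxcl10 answer interferon-gamma and draw T cells, Cxcl1 and Cxcl2 draw neutrophils, Ccl2 draws monocytes, Ccl5 draws T cells and monocytes, and Cxcl12 retains cells near stroma. In the ageing prostate they are known for their part in chronic inflammation and stromal growth.

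Cxcl13 was called higher with age on both diets and Cxcl1 in CTR alone, calls that did not hold in every fit with a library left out. Their promoters and those of their relatives Cxcl2 and Cxcl10 are shown, since each holds a motif tied to induction or to the start of transcription. They come from RefSeq on the build GRCr8, which is not the Rnor_6.0 of the submitters' notes, and 8 of the 10 ligands had an entry, with Ccl2 and Ccl5 without one. The Cxcl1 window is chr14:17479322-17479471 and the Cxcl2 window chr14:17467256-17467405, both on the minus strand. The Cxcl10 window is chr14:15988816-15989065 on the plus strand, and that of Cxcl13 is chr14:13917921-13918070 on the minus strand. Each ends at the base before the annotated start. Capitals mark the kappa B motif (overlapping matches joined) in Cxcl1, Cxcl2 and Cxcl10, the interferon-stimulated response element core GAAANNGAA as the first capitals of Cxcl10, and TATAAA in Cxcl13.
Cxcl1: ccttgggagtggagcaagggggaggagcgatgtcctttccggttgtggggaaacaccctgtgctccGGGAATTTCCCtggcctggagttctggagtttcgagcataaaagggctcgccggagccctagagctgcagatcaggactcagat
Cxcl2: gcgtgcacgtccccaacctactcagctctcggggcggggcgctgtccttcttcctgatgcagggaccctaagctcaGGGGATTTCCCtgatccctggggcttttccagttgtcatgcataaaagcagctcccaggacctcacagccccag
Cxcl10: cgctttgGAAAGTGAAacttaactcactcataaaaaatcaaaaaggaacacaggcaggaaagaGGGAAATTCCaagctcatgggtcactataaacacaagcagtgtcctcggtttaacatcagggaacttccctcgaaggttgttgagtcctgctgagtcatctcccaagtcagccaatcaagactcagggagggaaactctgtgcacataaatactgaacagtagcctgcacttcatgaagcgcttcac
Cxcl13: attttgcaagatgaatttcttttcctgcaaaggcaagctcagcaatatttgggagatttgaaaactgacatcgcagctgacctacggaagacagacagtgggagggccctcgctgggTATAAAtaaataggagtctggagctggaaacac

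Both strands were searched from 250 bases before to 50 after each start. The kappa B motif, bound by NF-kappaB, was found in Cxcl1, with its first base at -84 from the start, in Cxcl2 at -74 and in Cxcl10 at -187, and 4.16% of 27457 rat promoters hold it. GAAANNGAA was found in Cxcl10 at -243 and in Ccl19 at -51, against 9.5% of promoters. TATAAA was found in Cxcl13 at -33 and in Cxcl10 at -162, against 14.3%. No match to these motifs was found for Ccl21 or Cxcl12. In the GRCr8 annotation Cxcl1 and Cxcl2 neighbour each other on chromosome 14, Cxcl9, Cxcl10 and Cxcl11 lie side by side on the same chromosome, and Ccl19 and Ccl21 lie near each other on chromosome 5.

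Levels are given in CPM, the count scaled to library size, with sizes set over all 16 libraries by the trimmed mean of M values (TMM) on the shared genes. Totals lay between 28748604 and 39161666 counts per library, and 1 count was worth 0.0259 to 0.0419 CPM. Of counts from 1 to 10, even numbers made up 54.6% to 60.1% at PND21 and 63.1% to 68.2% at PND540, so low counts did not behave as single independent reads. At PND540 CTR replicate 5 had a median correlation of 0.877 with the other libraries of its age, against 0.962 to 0.974 for those. At PND21 CTR replicate 1 held 0.282% mitochondrial counts, against 3.66% to 5.02% in the other libraries of that age, and those of PND540 held 0.015% to 0.0413%, so that this share also parts the ages. The secretory marker list of the ventral prostate, of which 5 of 6 genes were named in both tables, summed to between 18727 and 109816 CPM in every library, so the labelled tissue carried its own markers. The 2 tables list different gene annotations, so each comparison of ages also carries whatever differed in how they were counted. In whole glands, fewer cells of a type and less RNA per cell cannot be told apart.

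**Figure D1:**
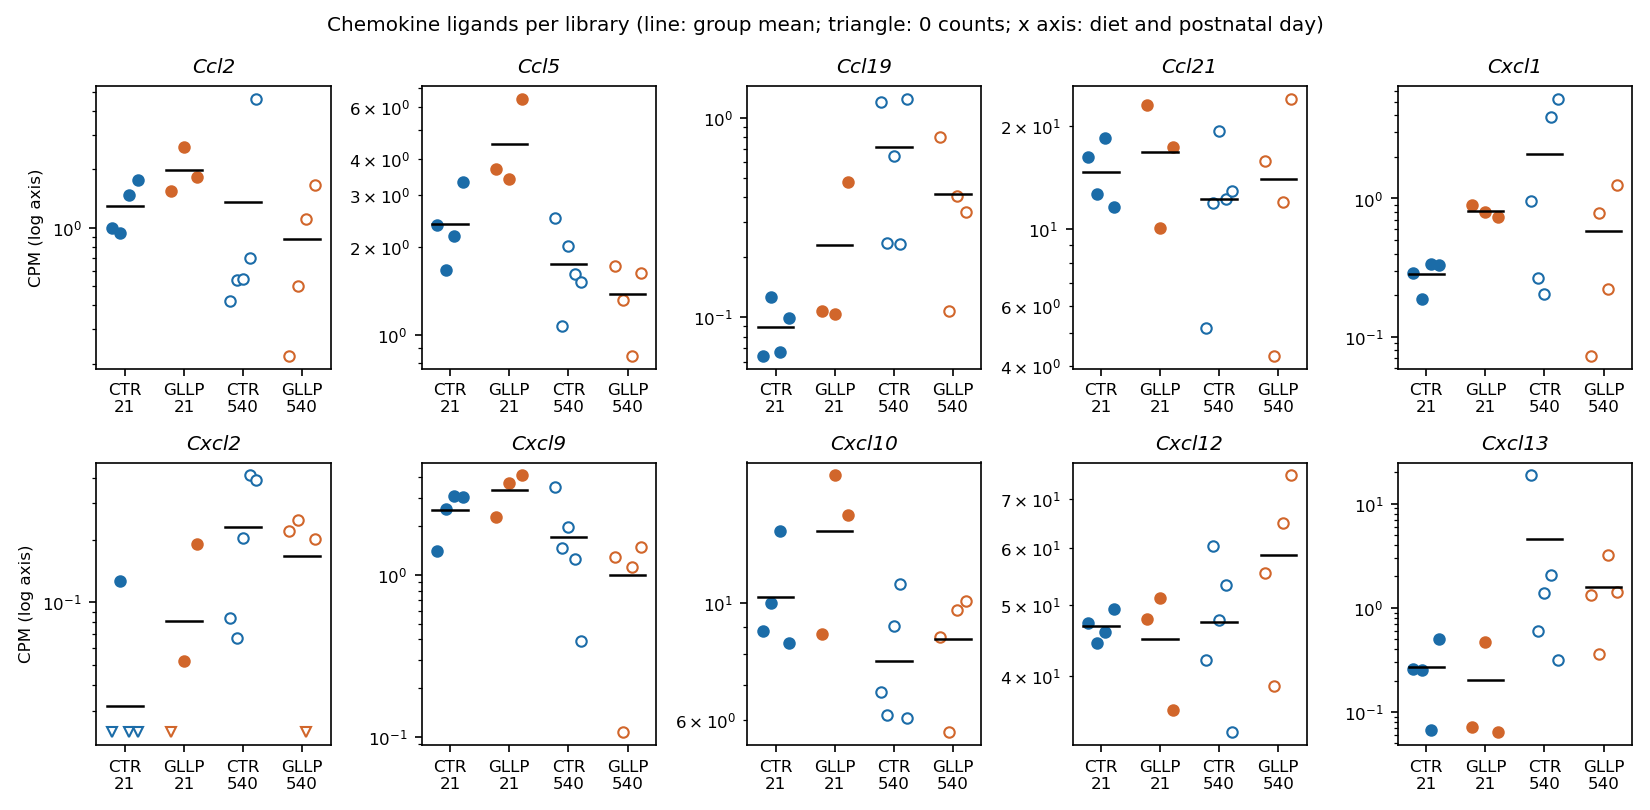
Level of each chemokine ligand in every library, in CPM on a log axis, by diet and postnatal day; lines are group means and triangles mark 0 counts. Cxcl12 lies between 33.5 and 75.4 CPM in every library, while Cxcl13 spans 0.313 to 18.7 CPM within the CTR libraries of PND540.

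Cxcl13, which binds the receptor Cxcr5 and gathers B cells into follicles, was higher at PND540 than at PND21 on both diets, with wide spread between glands. The 4 CTR libraries of PND21 held 0.257, 0.252, 0.0669 and 0.499 CPM, and the 5 of PND540 held 18.7, 0.603, 1.4, 2.05 and 0.313 CPM. The 3 GLLP libraries of PND21 held 0.0717, 0.467 and 0.0638 CPM, and the 4 of PND540 held 1.32, 0.358, 3.21 and 1.42 CPM. On each diet 1 library of PND540 lay below the highest library of PND21, so the ages overlapped, and CTR replicate 1 stood far above every other gland. The fit gave a log2 fold change of 4.07 ± 1.29 (SE) in CTR (edgeR quasi-likelihood test, adjusted p = 0.0385) and of 2.88 ± 0.92 in GLLP (adjusted p = 0.0365). Cxcl13 held 2 to 15 counts per CTR library and 2 to 18 per GLLP library at PND21, against 8 to 447 and 10 to 87 at PND540. It thus passed the filter on low counts mainly through its higher group, which limits what these calls can say. In CTR the call was lost in 6 of 9 fits that left out a library, namely any 1 of the 4 of PND21 or replicate 1 or 4 of PND540, with adjusted p from 0.0107 to 0.101. Without CTR replicate 1 of PND540 the value was 2.02 (adjusted p = 0.065), and without CTR replicates 1 and 5 of PND540 together it was 2.32 (adjusted p = 0.01). In GLLP the call was lost without replicate 2 or 4 of PND21 and without replicate 1 or 3 of PND540, with adjusted p from 0.0159 to 0.118 over the 7 fits. The receptor Cxcr5 stood at 1.22 ± 0.36 CPM (SD, n = 4) in CTR at PND21 and 1.94 ± 0.798 CPM (n = 5) at PND540 (log2 fold change 0.67, adjusted p = 0.235).

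Between diets Cxcl13 was too low at PND21 to enter the test. At PND540 it had a log2 fold change of -1.55 ± 1.15 for GLLP against CTR (adjusted p = 0.914), which became 0.54 without CTR replicate 1. B cell markers were scarce in the same glands: 7 of 8 were named in both tables, and their sum was 7 CPM in CTR replicate 1 of PND540 and 0.503 to 1.55 CPM in the other 8 libraries of that age. Fcrl1 and Cr2 were at 0 in all GLLP libraries of PND540.

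Ccl19 and Ccl21 both bind Ccr7 and lead T cells and dendritic cells to lymph nodes, but their values went separate ways. Ccl19 held 0.0642, 0.126, 0.0669 and 0.0997 CPM in CTR at PND21 and 1.21, 0.235, 0.647, 0.234 and 1.25 CPM at PND540. Every CTR library of PND540 lay above every one of PND21, as did those of 18.7% of all genes tested. The gene stayed under the filter on low counts. It held 29, 7, 19, 8 and 32 counts in the libraries of PND540 and 11 over the 4 of PND21. Without that filter the log2 fold change was 2.92 (adjusted p = 0.0109). Each of the 4 fits that left out a CTR library of PND21 tested and called it, with adjusted p of 0.0245 to 0.0342. With a library of PND21 left out, the filter asked for fewer libraries, so Ccl19 passed on its higher PND540 libraries alone. These calls therefore add no support of their own. In GLLP Ccl19 held 0.108, 0.104 and 0.478 CPM at PND21 and 0.807, 0.107, 0.406 and 0.339 CPM at PND540. These ages overlapped, with a log2 fold change of 0.83 ± 0.81 (adjusted p = 0.467), and the interaction of diet and age was -2.09 ± 1.07 (unadjusted p = 0.0699, adjusted p = 0.738). Between diets at PND540 the log2 fold change was -0.79 ± 0.71 (adjusted p = 0.914).

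Ccl21, made by lymphatic endothelium and lymphoid stroma, stood at 14.7 ± 3.14 CPM (SD, n = 4) in CTR and 16.8 ± 6.46 CPM (n = 3) in GLLP at PND21, and at 12.3 ± 5.07 CPM (n = 5) and 14 ± 8.19 CPM (n = 4) at PND540. The 4 groups overlapped. None of its 4 pairwise fits had an unadjusted p under 0.05, with log2 fold changes of 0.19 ± 0.27 and 0.18 ± 0.48 for the diet at the 2 ages and -0.25 ± 0.34 and -0.27 ± 0.51 for age in CTR and GLLP. Among the GLLP libraries of PND540 the highest was 5.59 times the lowest, at 24 and 4.29 CPM. Rat genomes hold closely related copies of Ccl21, so its counts are uncertain where reads could be split. The 4 lymphatic endothelium markers summed to 37.1 to 57.3 CPM in CTR and 60.2 to 65.8 CPM in GLLP at PND21, and to 9.47 to 29.7 and 14.4 to 45.1 CPM at PND540, none of them at 0. Their part in the Ccl21 values was not tested. The shared receptor Ccr7 held 0 to 0.266 CPM in CTR and 0.215 to 0.766 CPM in GLLP at PND21.

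Cxcl1, which binds Cxcr2 on neutrophils, showed the smallest p of the ligands between the diets at PND21. The 4 CTR libraries held 0.289, 0.189, 0.335 and 0.332 CPM and the 3 GLLP libraries 0.896, 0.804 and 0.734 CPM. Every GLLP library lay above every CTR library, as did those of 9.49% of all genes tested. The log2 fold change was 1.49 ± 0.33 (unadjusted p = 0.00145), but the adjusted p of 0.0743 missed the threshold. DESeq2 called it (adjusted p = 0.0343), as did limma voom with sample weights (adjusted p = 0.00695) and the fit on library size alone (adjusted p = 0.0365), while over the 7 fits that left out a library the adjusted p ran from 0.0585 to 0.27. These values rest on 6 to 10 counts per CTR library and 23 to 31 per GLLP library, so Cxcl1 passed the filter on low counts mainly through its higher group. The alternative calls use the same counts and add no support of their own.

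At PND540 the spread of Cxcl1 was of another order. The 5 CTR libraries held 0.963, 0.268, 0.204, 3.89 and 5.24 CPM, and the 4 GLLP libraries 0.0733, 0.787, 0.222 and 1.25 CPM. CTR replicates 4 and 5 were high and the other CTR libraries lay within the GLLP range, so that the diets overlapped, with a log2 fold change of -1.87 ± 1.08 (adjusted p = 0.914). Against PND21 Cxcl1 was higher in CTR by a log2 fold change of 2.87 ± 0.98 (adjusted p = 0.0498), although CTR replicates 2 and 3 of PND540 lay within the range of the younger libraries. That call held in 2 of 9 fits that left out a library and was lost without any 1 of the 4 CTR libraries of PND21 or without CTR replicate 1, 4 or 5 of PND540, with adjusted p from 0.0231 to 0.127. Without CTR replicates 1 and 5 of PND540 together it was 2.35 (adjusted p = 0.0706), and limma voom with sample weights gave 0.56 (adjusted p = 0.463). The Cxcl1 call was also lost with RLE size factors (adjusted p = 0.0509), with library size alone (0.0599), without the filter on low counts (0.0509) and with the replicate block (1.45, adjusted p = 0.151), while DESeq2 made it (adjusted p = 0.00414). In GLLP the age difference was -0.47 ± 0.77 (adjusted p = 0.673).

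The interaction of diet and age, which asks whether the diet effect at PND540 differs from that at PND21, was -3.33 ± 1.32 for Cxcl1 (unadjusted p = 0.0231, adjusted p = 0.738). It did not pass the threshold. Neutrophil markers, all 7 named, summed to 0.899 to 3.11 CPM in CTR and 2.04 to 5.07 CPM in GLLP at PND21, and to 8.11 to 46.4 CPM in CTR and 13.5 to 17.7 CPM in GLLP at PND540, with none at 0. With age 3 of 5 tested neutrophil markers were called higher in CTR and 3 of 6 in GLLP, where 17.3% and 19.1% of all genes were. On both diets these were Fcgr3a, Mpo and Csf3r. S100a8 and S100a9, abundant proteins of neutrophils, had highest values of 2.46 and 2.83 CPM in any library. Neither was called with age, with S100a8 at 0.059 in CTR and -1.75 in GLLP and S100a9 at 0.64 and 0.80. The part of the neutrophil markers in the Cxcl1 values was not tested.

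Cxcl2, a close paralog of Cxcl1 with the same receptor, was nearly silent at PND21, with 4 counts over the 4 CTR libraries and 8 over the 3 GLLP libraries. At PND540 it held 2, 2, 6, 14 and 10 counts in CTR and 6, 7, 0 and 6 counts in GLLP. The higher counts were again in CTR replicates 4 and 5. It entered no test, and without the filter on low counts its log2 fold changes were 2.69 for age in CTR (adjusted p = 0.101) and -0.45 for diet at PND540 (adjusted p = 0.916). Reads of Cxcl1, Cxcl2 and Cxcl3 could be split between these similar genes, and no source used here says how the counting treated them. The receptor Cxcr2 had means of 0.253 ± 0.111 CPM (SD, n = 4) in CTR and 0.458 ± 0.109 CPM (n = 3) in GLLP at PND21.

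Cxcl9 and Cxcl10 share the receptor Cxcr3, carried by activated T cells. Cxcl9 held 2.29, 3.68 and 4.11 CPM in GLLP at PND21 and 1.28, 0.107, 1.11 and 1.49 CPM at PND540. All older GLLP libraries lay below all younger ones, as did those of 21.9% of all genes tested, and the log2 fold change of -1.76 ± 0.66 missed the threshold (adjusted p = 0.0661). DESeq2 (adjusted p = 0.026), limma voom (adjusted p = 0.0121) and the fit without GLLP replicate 2 of PND540 (adjusted p = 0.0254) called it lower. CTR libraries held 1.41, 2.55, 3.08 and 3.02 CPM of Cxcl9 at PND21 and 3.48, 1.47, 1.98, 1.26 and 0.391 CPM at PND540, which overlapped (log2 fold change -0.56 ± 0.52, adjusted p = 0.451). Its diet effect was 0.43 ± 0.31 at PND21 and -0.78 ± 0.73 at PND540, neither past the threshold.

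Cxcl10 was steadier. It held 8.86, 10, 13.7 and 8.41 CPM in CTR and 8.74, 17.5 and 14.7 CPM in GLLP at PND21, and 6.79, 6.13, 9.06, 10.9 and 6.06 CPM in CTR and 8.62, 5.69, 9.71 and 10.1 CPM in GLLP at PND540. The diets overlapped at both ages, with log2 fold changes of 0.42 ± 0.25 (adjusted p = 0.381) and 0.13 ± 0.29 (adjusted p = 0.923). Age gave -0.40 ± 0.26 in CTR (adjusted p = 0.274) and -0.69 ± 0.30 in GLLP (adjusted p = 0.109). Without GLLP replicate 2 of PND21 the GLLP value was -0.93 and passed (adjusted p = 0.0428). Their receptor Cxcr3 rose from 2.14 ± 0.421 to 7.23 ± 2.39 CPM with age in CTR (log2 fold change 1.75, adjusted p = 0.00335) and from 2.24 ± 1.3 to 6.99 ± 2.38 CPM in GLLP (1.62, adjusted p = 0.0239).

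Ccl5, made by T cells among others, fell with age in GLLP and held that call in every fit that left out 1 of those libraries. GLLP libraries held 3.69, 3.4 and 6.41 CPM at PND21 and 1.72, 1.32, 0.85 and 1.63 CPM at PND540. No older library reached the lowest younger one, which held for 21.9% of all genes tested. The log2 fold change was -1.71 ± 0.39 (adjusted p = 0.00864), with adjusted p from 0.0107 to 0.0469 over the 7 fits. In CTR the libraries held 2.38, 1.67, 2.18 and 3.32 CPM at PND21 and 2.51, 1.07, 2.01, 1.61 and 1.52 CPM at PND540, which overlapped (log2 fold change -0.45 ± 0.33, adjusted p = 0.325). The interaction was -1.25 ± 0.49 (unadjusted p = 0.0228, adjusted p = 0.738), so the age effects were not shown to differ between the diets.

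At PND21 Ccl5 was higher in all 3 GLLP libraries than in any CTR library, as were 9.49% of all genes tested. The log2 fold change was 0.92 ± 0.30 (adjusted p = 0.161). At PND540 the diets overlapped, with a log2 fold change of -0.35 ± 0.38 (adjusted p = 0.914). Among T cell markers, 5 of 8 tested were called higher with age in CTR, where 17.3% of all genes were, and 2 of 7 in GLLP, where 19.1% were. None was called lower. In GLLP 5 of the 7 were positive, while Lck was at -0.068 and Cd8a at -0.005. Of 10 T cell markers 9 were named in both tables, and their sum was 12.6 to 17.9 CPM in CTR and 15.4 to 20.8 CPM in GLLP at PND21, and 35.5 to 114 CPM in CTR and 36 to 79.1 CPM in GLLP at PND540. Cd3e, a chain of the T cell receptor complex, had a log2 fold change with age of 3.12 in CTR (adjusted p = 0.00281) and 1.89 in GLLP (adjusted p = 0.0316). No named T cell marker was at 0 in any group. Natural killer cells also make Ccl5, and of 5 of their markers tested in GLLP, 2 fell with age, where 17.1% of all genes were called lower: the pore-forming Prf1, which cytotoxic T cells also make, by 2.06 on the log2 scale (edgeR, adjusted p = 0.00621) and the receptor Ncr1 by 3.13 (adjusted p = 0.0226). Ncr1 held 10 to 27 counts per GLLP library at PND21 and 0 to 4 at PND540, so it passed the filter through its higher group. In CTR Ncr1 was not tested, with 42 counts over the libraries of PND21 and 15 over those of PND540. None of 3 markers tested in CTR was called, with Prf1 at -0.96 (adjusted p = 0.145). Klrk1 was the 1 tested natural killer marker with a positive value on each diet, at 0.35 in GLLP and 0.38 in CTR, and was not called. The interaction called neither Prf1 nor Ncr1. All 6 natural killer markers were named. Gzmb was at 0 in every library of PND21 and held 10 counts over the CTR and 13 over the GLLP libraries of PND540. The sum of the 6 was 3.37 to 5.05 CPM in CTR and 4.48 to 7.96 CPM in GLLP at PND21, and 2.41 to 6.33 and 3.03 to 5.15 CPM at PND540. The part of T cells and natural killer cells in the Ccl5 age values was not tested.

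Ccl2, the ligand of Ccr2 on monocytes, turned on 1 gland at PND540. CTR libraries held 0.996, 0.945, 1.47 and 1.76 CPM at PND21 and 0.419, 0.536, 0.545, 0.702 and 4.61 CPM at PND540. CTR replicate 5 was thus the highest of all 16 libraries, and the other 4 lay below every younger CTR library. The log2 fold change with age was 0.067 ± 0.74 with all CTR libraries (adjusted p = 0.954) and -1.22 without replicate 5, which was called lower (adjusted p = 0.0133). It was -1.11 without replicates 1 and 5 (adjusted p = 0.0287). In GLLP the libraries held 1.54, 2.62 and 1.82 CPM at PND21 and 0.22, 0.501, 1.11 and 1.66 CPM at PND540, with a log2 fold change of -1.20 ± 0.62 (adjusted p = 0.166). The diet effect was 0.63 ± 0.31 at PND21 (adjusted p = 0.288). At PND540 it was -0.67 ± 0.87 (adjusted p = 0.914), and 0.66 without CTR replicate 5. All 10 macrophage markers were named, none was at 0, and their sum was 171 to 386 CPM in CTR and 264 to 391 CPM in GLLP at PND21. At PND540 the sums were 681 to 2053 CPM in CTR, the highest in replicate 5, and 565 to 1032 CPM in GLLP. Abundant genes weigh most in such sums. By mean log2 CPM of the markers CTR replicate 5 stood at 5.18, below CTR replicate 4 (5.47) and GLLP replicates 4 (5.37) and 1 (5.34). With age 8 of 10 markers were positive on each diet. Mrc1 was at -2.05 in CTR (edgeR, adjusted p = 0.0198) and -1.66 in GLLP, and Cd163 at -1.17 and -0.74. The part of the macrophage markers in the Ccl2 values was not tested beyond the relation given further on.

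Cxcl12, the ligand of Cxcr4 and of the scavenging receptor Ackr3, was the member with the least spread for its group in CTR at both ages. It held 47.3, 44.4, 45.9 and 49.5 CPM in CTR and 47.9, 51.2 and 35.9 CPM in GLLP at PND21. At PND540 it held 42.1, 60.3, 47.8, 53.3 and 33.5 CPM in CTR and 55.3, 38.8, 64.9 and 75.4 CPM in GLLP. All 4 groups overlapped. Log2 fold changes were -0.052 ± 0.12 and 0.31 ± 0.24 for the diet at PND21 and PND540 (adjusted p = 0.842 and 0.914) and 0.021 ± 0.19 and 0.37 ± 0.23 for age in CTR and GLLP (adjusted p = 0.941 and 0.247). The fibroblast markers, all 6 named and none at 0, summed to 2292 to 4257 CPM over the PND21 libraries and 69 to 583 CPM over those of PND540. Col1a2 went against that sum, with edgeR log2 fold changes with age of 5.67 in CTR (adjusted p = 0.00271) and 6.06 in GLLP (adjusted p = 0.00193). Col1a1 fell by 5.61 and 5.53. The annotations of the ages differ, and their part in these folds was not tested. Nor was the part of the fibroblast markers in the Cxcl12 values. Cxcr4 had a log2 fold change of 0.74 ± 0.23 for GLLP at PND21 (adjusted p = 0.151), and Ackr3 one of 0.34 ± 0.17 (adjusted p = 0.319).

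**Figure D2:**
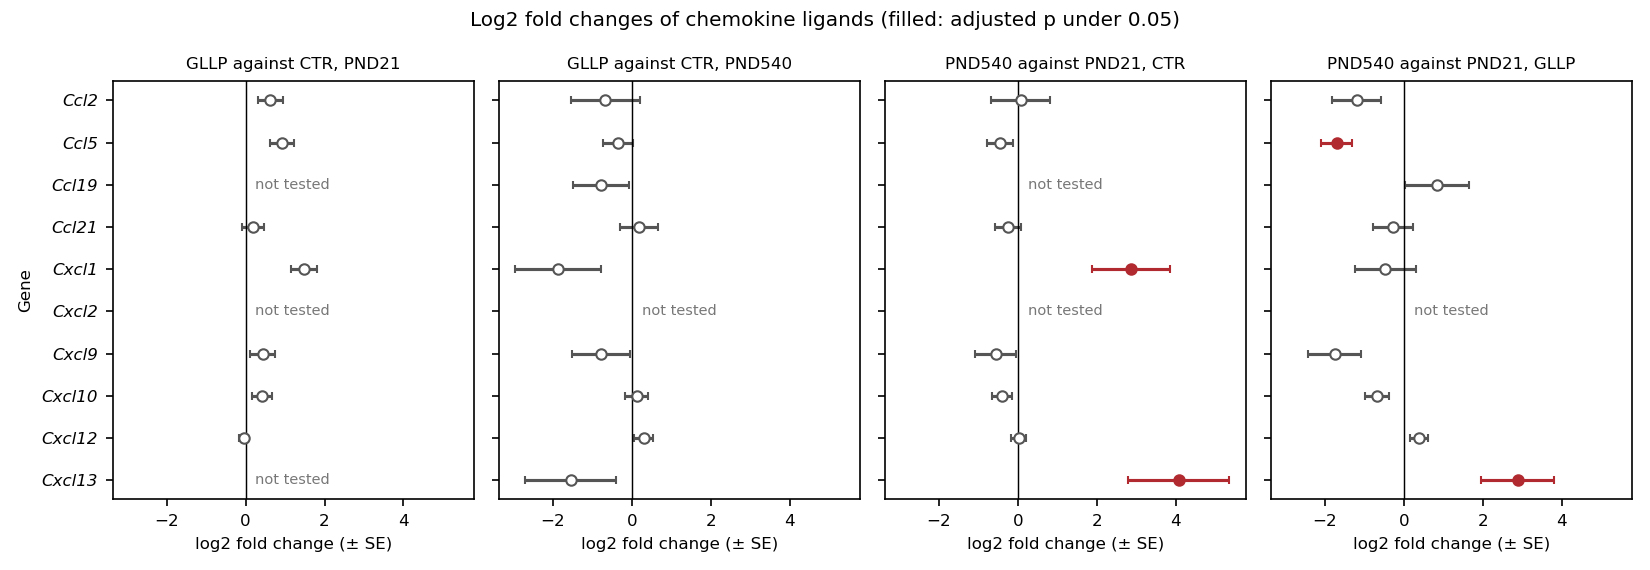
Log2 fold change of each ligand (horizontal axis, bars ± SE) in the 4 pairwise comparisons, filled where the adjusted p was under 0.05. Filled points stand for Cxcl1 and Cxcl13 with age in CTR and for Ccl5 and Cxcl13 with age in GLLP; none stands in the panels of diet.

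Counted together, 7 of the 10 ligands could be tested between the diets at PND21, where 1.11% of all genes were called, and none was called. By unadjusted p under 0.05, which 19.3% of all genes had, 2 ligands passed, Cxcl1 and Ccl5. DESeq2 called 1 and limma voom with sample weights 4, namely Ccl2, Ccl5, Cxcl1 and Cxcl10. The log2 fold change was positive in 6 of the 7, with a median of 0.43, against 49.5% positive and a median of -0.0038 over all genes. Skeletal muscle markers, 7 of 8 named and none at 0, summed to 356 to 442 CPM in CTR and 999 to 1169 CPM in GLLP at that age. Their part in the diet values of PND21 was not tested.

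Between the diets at PND540, 9 ligands were tested and edgeR called none, nor did DESeq2 or limma voom. No ligand had an unadjusted p under 0.05. Among all genes 0% were called and 0.833% had such a p, so a lack of calls was common to the whole comparison. The log2 fold change was positive in 3 of the 9, with a median of -0.67, against 50% positive and a median of -0.0003 over all genes. That median was -0.0091 without CTR replicates 1 and 5, with 4 of 9 positive.

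With age, 2 of 8 tested ligands were called in CTR, both higher, where 17.3% of all genes were called higher and 30.5% in either direction. In GLLP 1 of 9 was called higher and 1 lower, where 19.1% and 17.1% of all genes were, and 36.2% in either direction. Positive values numbered 4 of 8 in CTR (median -0.12) and 3 of 9 in GLLP (median -0.47), against 53.9% and 51.3% of all genes. Set beside the shares of all genes, the counts of ligands called with age are no result about the ligands as a group. For the interaction 0 of 9 were called by edgeR, DESeq2 or limma voom, against 0.0917% of all genes, and 2 had an unadjusted p under 0.05, against 5.17%. Its value was positive for 1 of the 9, Cxcl12 at 0.36 ± 0.30, with a median of -1.19, against 48% positive and a median of -0.029 over all genes. Without CTR replicates 1 and 5 of PND540 the median of the 9 was -0.43, with 2 positive and 1 unadjusted p under 0.05. The diet and age comparisons share libraries, so their values for a ligand are not independent of each other.

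**Figure D3:**
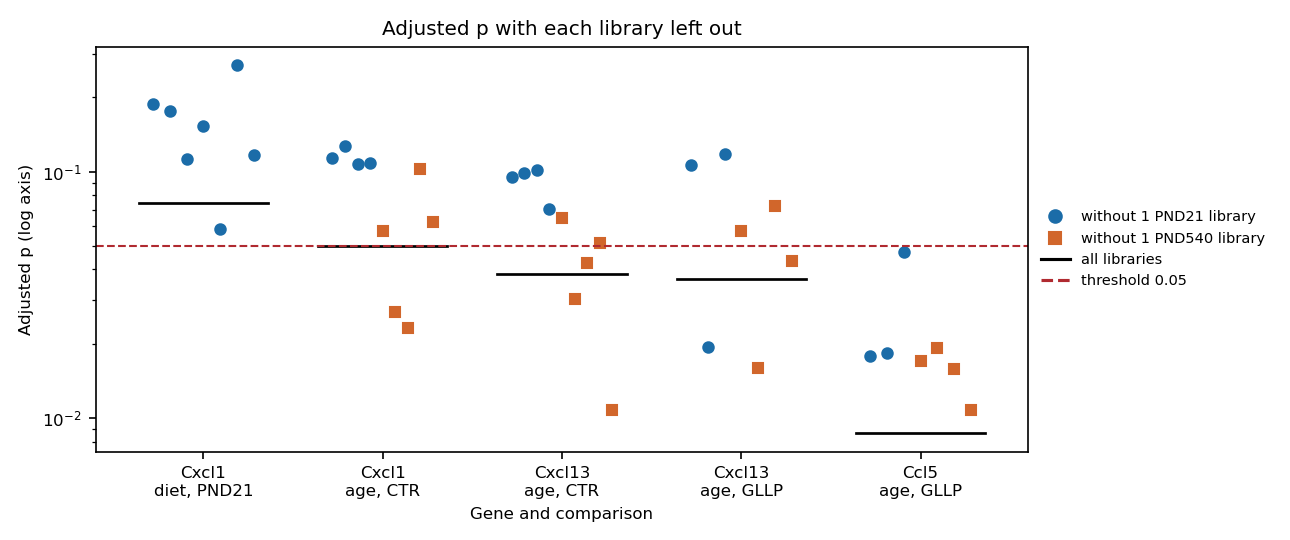
Adjusted p (log axis) of 5 comparisons of single ligands when each library is left out in turn; blue points leave out a PND21 library, orange squares a PND540 library, black lines use all libraries and the dashed line is the threshold of 0.05. All 7 points of Ccl5 with age in GLLP lie under the threshold, and 2 of 9 points of Cxcl1 with age in CTR do.

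Most ligands varied more between glands of a group than the median gene did. On a scale of log2(CPM + 0.1), 9 of 10 ligands in CTR and 9 in GLLP at PND21 had a larger SD than the median gene, and 7 in CTR and 10 in GLLP did at PND540. In CTR at PND540 Cxcl13 had an SD of 2.12, larger than that of 98.8% of 14178 genes tested, and Cxcl1 one of 1.90, larger than 98%. Cxcl10 and Cxcl12, at 0.37 and 0.33, were larger than only 24.4% and 19.9%. Low counts widen such an SD, so the ligands at under 1 CPM cannot be set against abundant genes on this measure alone.

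The receptors, 21 of 23 named in both tables, showed no call between the diets at either age and none for the interaction. At PND21 10 of 13 tested receptors were positive with a median log2 fold change of 0.14, and at PND540 7 of 13 with a median of 0.093. With age in CTR, where 11 were tested, the fractalkine receptor Cx3cr1 rose by 3.06 on the log2 scale and Cxcr3 by 1.75, and Ccr10 fell by 1.64. In GLLP, where 13 were tested, Cx3cr1 rose by 3.08 and Cxcr3 by 1.62, and none fell. These counts are not above the 30.5% and 36.2% of all genes called in CTR and GLLP.

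Of 26 other chemokine ligands, 13 were tested between the diets at PND21 and none was called, with 12 of 13 positive and a median of 0.66. Pf4, a platelet and macrophage chemokine, had a log2 fold change of 0.99 ± 0.22 (adjusted p = 0.0743), and the eosinophil attractant Ccl24 one of 0.69 ± 0.17 (adjusted p = 0.095). At PND540 3 of 15 were positive, the median was -0.43 and none was called. For the interaction 2 of 18 were positive with a median of -1.26, and none was called. Between the ages in CTR 4 of 13 rose, the membrane-bound ligands Cxcl16 (by 2.71) and Cx3cl1 (by 2.42), and Cxcl17 (2.29) and Ccl4 (3.15), and Ccl6 fell by 1.18, where 30.5% of all genes were called in either direction. In GLLP Cxcl16 and Cx3cl1 rose by 2.09 and 2.00, and Pf4, Ccl20 and Ccl24 fell by 1.43, 2.82 and 1.15, of 15 tested, where 36.2% of all genes were called. Neither count lies far from its share of all genes. Ccl4 and Ccl24 with age were named after their values were seen.

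Cxcl16 stood at 16 ± 4.2 CPM (SD, n = 4) in CTR at PND21 and 104 ± 46.9 CPM (n = 5) at PND540. Cx3cl1 stood at 46.4 ± 9.16 and 248 ± 120 CPM in the same groups. The rise of these ligands and of Cx3cr1 and Cxcr3 with age was past the threshold on both diets, as was that of Cxcl13 and of no other of the 10 ligands. Cxcl13 had entered its age tests mainly through the PND540 libraries. Whether the diets differed in these rises was tested by the interaction, which called none of these genes.

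Of the NF-kappaB and inflammatory cytokine genes, none of 20 was called between the diets at PND21 (15 positive, median 0.11), none of 19 at PND540 (6 positive, median -0.11) and none of 21 for the interaction. With age in CTR 7 of 21 rose and 1 fell, with a median of 0.60, where 17.3% of all genes were called higher and 13.2% lower. Il1rn, the antagonist of the interleukin-1 receptor, rose by 4.68 and Il1a by 3.03, the feedback inhibitor Tnfaip3 rose by 1.42, and the prostaglandin synthase Ptgs2 fell by 5.45. In GLLP 4 of 20 rose, a share near the 19.1% of all genes, and 1 fell, with a median of 0.28: Tnfaip3 rose by 1.73, Il1r1 by 1.64 and Il1rn by 2.85, and Ptgs2 fell by 3.25.

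Of the interferon-gamma response genes, none of 18 was called between the diets at PND21 and none of 20 at PND540. There 6 of 20 were positive, with a median of -0.27, and the smallest p belonged to the peptide transporter Tap1 (log2 fold change -1.06 ± 0.45) and the immunoproteasome subunit Psmb9 (-1.20 ± 0.51), both with adjusted p = 0.914. Between the ages in CTR 11 of 19 rose and none fell, with a median of 1.48, which was the same with Tap2 set to its bound, where 17.3% of all genes were called higher. Without Tap2 it was 10 of 18, with a median of 1.44. They included Nlrc5 (by 1.81), an activator of class I antigen presentation, Psmb9 (2.78) and Psmb8 (2.59). In GLLP 5 of 19 rose (4 of 18 without Tap2), near the 19.1% of all genes, with a median of 0.66, among them Cd274 (2.69), Jak1 (0.90) and Nlrc5 (1.84). Tap2 was listed with 0 counts in the 4 CTR libraries and 1 count over the 3 GLLP libraries of PND21, and with 172 to 379 counts in each library of PND540. The tables' annotations differ, so no fold is given for it. Ifng itself had 0 counts in all 9 libraries of PND540, and the ligands Cxcl9 and Cxcl10 were not among those called with age.

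Of 16 lymphoid tissue organising genes, 15 were named and none was called between the diets. With age in CTR the lymphocyte survival cytokines Il7 (by 2.04) and Tnfsf13b (1.18) rose, and Madcam1 and Tnfrsf11a fell by 1.79 and 0.92, of 7 tested, where 17.3% and 13.2% of all genes were called higher and lower. In GLLP Madcam1, an addressin for lymphocyte homing, fell by 2.64, and no other of 7 was called, where 17.1% of all genes were called lower. Of 12 genes that cut or hold chemokines none was called between the diets. With age the heparan sulfate enzyme Ndst1 rose by 1.25 in CTR and 1.35 in GLLP, and the protease Mmp2 fell by 2.09 and 2.45. The syndecans Sdc1 (by 1.76) and Sdc4 (1.93) rose in CTR, and Mmp9 fell by 1.88 in GLLP. With age 3 of 11 tested genes of this list were called higher and 1 lower in CTR, and 1 of 12 higher and 2 lower in GLLP. Of all genes 30.5% in CTR and 36.2% in GLLP were called in either direction, so these counts are no result about the list.

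At PND540, 7 relations were computed over the 9 libraries of both diets (log2 CPM, prior count 2), and 6 of them are given, in no order of size. None passed adjustment over the 7 by either measure (exact permutation tests, two-sided). Ccl5 went with the mean of 8 T cell markers at Pearson r = 0.71 (permutation p = 0.0325, adjusted 0.114) and Spearman rho = 0.60 (p = 0.0968, adjusted 0.339). Without CTR replicate 1 and GLLP replicate 3, the 2 libraries farthest from the median of Ccl5, r was 0.28. Leaving out the ends of a range tends to lower r by itself. The drop therefore cannot say whether the relation rested on those libraries. Without CTR replicate 5, the library that stood apart, r was 0.87 (exact permutation p = 0.00627), and with each library left out in turn it was 0.49 to 0.87.

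Cxcl1 and Cxcl2 had r = 0.58 (permutation p = 0.101, adjusted 0.236) and rho = 0.45 (p = 0.23, adjusted 0.537), and r = 0.68 without the 2 farthest libraries. For Cxcl9 and Cxcl10, r was 0.47 (permutation p = 0.212, adjusted 0.37) and rho 0.33 (p = 0.385, adjusted 0.612), and r turned to -0.52 without CTR replicate 5 and GLLP replicate 2 and was 0.16 without GLLP replicate 2 alone. Cxcl13 and Ccl19 had r = 0.38 (permutation p = 0.325, adjusted 0.455) and rho = 0.05 (p = 0.912, adjusted 0.912), and r = 0.55 without the 2 farthest. That r was 0.76 without CTR replicate 5 (exact permutation p = 0.0256), 0.19 without GLLP replicate 2 and -0.0018 without CTR replicate 1. Ccl19 and Ccl21 had r = 0.17 (permutation p = 0.648, adjusted 0.738) and rho = 0.30 (p = 0.437, adjusted 0.612), and r = 0.74 without the 2 farthest. Here r was 0.58 without CTR replicate 1 and -0.36 without GLLP replicate 2. Ccl2 and the mean of 10 macrophage markers had r = 0.13 (permutation p = 0.738, adjusted 0.738) and rho = 0.20 (p = 0.613, adjusted 0.715), and r = -0.50 without the 2 farthest. With each library left out in turn it was -0.048, without CTR replicate 5, to 0.37, without GLLP replicate 1. The relations pool the diets, and the labels record no batch.

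**Figure D4:**
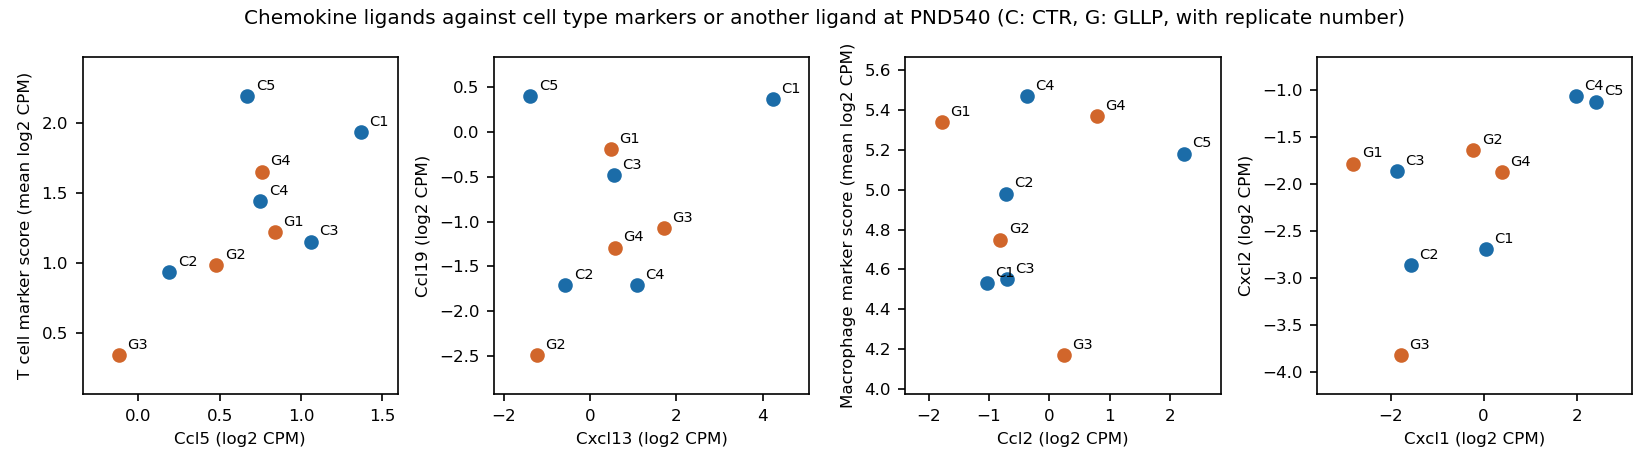
Log2 CPM of Ccl5, Cxcl13, Ccl2 and Cxcl1 (horizontal axes) against a marker score or another ligand (vertical axes) in the 9 libraries of PND540; letters and numbers name diet and replicate. CTR replicate 1 lies alone at the right for Cxcl13, and r is 0.71 for Ccl5 with the T cell score and 0.38 for Cxcl13 with Ccl19.

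Across the same 9 libraries, the genes of most similar pattern were sought among 12137 or 12138 genes with a mean of at least 1 CPM, as a description with no p, ranked by the smaller of r over the 9 and r without CTR replicate 5. The r over all 9 is given, and Cxcl2, too low to be tested, was left out. For Ccl5 the first was the T cell kinase Lck (r = 0.89), then Atp23 (0.88) and Neil1 (0.85). For Ccl21 they were Chst3 (0.98), the smooth muscle actin Acta2 (0.98) and Fam107a (0.97). Those of Cxcl1 were Acp5 (0.98), an acid phosphatase of osteoclasts and macrophages, Cyp4v3 (0.96) and Slamf9 (0.97). For Cxcl9 they included the mitotic genes Tpx2 (0.96) and Plk1 (0.90), with Adk (0.90) between them.

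By that ranking the genes nearest to Cxcl12 were Abi3bp (0.94), Plcl1 (0.91) and Tspan18 (0.94). Cxcl13 was nearest to Tmem231 (0.95), Fut2 (0.95) and Hoxd12 (0.92), and Ccl2 to Msi2 (0.97), Osr1 (0.94) and Tmod1 (0.95). Cxcl10 came closest to Enpep (0.90), Syt11 (0.90) and Terf2 (0.86), and Ccl19 to Mok (0.91), Rad1 (0.93) and Alas1 (0.90). With CTR replicates 1 and 5 left out, r was 0.85 or above for each gene named here. With so many genes and 9 libraries, high values of r are common, and the libraries share depth and composition effects.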

How the data were processed

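Ventral prostate RNA of 16 rats was sequenced, per the labels' protocols with Trizol extraction and standard Illumina libraries. The authors deposited unnormalized whole-number counts, 1 table for each age, with 28688 and 24218 entries of which 19709 names are shared. The submitters' processing notes name STAR, edgeR 3.34.0 and the build Rnor_6.0. No source used here gives the counting tool, the annotation or the use of strand.

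Each of 5 comparisons was fitted over all genes of the libraries compared with edgeR 4.0.16 in R 4.3.3 (filterByExpr, TMM, robust quasi-likelihood tests, Benjamini-Hochberg adjustment, threshold 0.05). Diet effects used 7 libraries at PND21 and 9 at PND540, age effects 9 in CTR and 7 in GLLP, and the interaction all 16. The SE is the log2 fold change divided by the root of the F statistic. The fits were tested on simulated data. Depth was 28748604 to 39161666 counts per library, and counting error covers only part of the spread.

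The members, 6 gene lists, 17 marker lists and the rules were chosen with earlier results of these data known. All members were named, the called genes of each list (the 4 with the smallest p where more were called), 2 with the smallest p of lists without a call where space allowed, and for each member tested at PND540 (all but Cxcl2) the 3 genes of most similar pattern. Alternatives were DESeq2 1.42.0, limma 3.58.1 voom with sample weights, scaling by RLE or by library size only, leaving out the filter or filtering at 1 CPM, dispersions without robust weights, a replicate block, a joint fit of 16 libraries and leaving out each library. Fits without CTR replicates 1 and 5 of PND540 were added after seeing the data. Figures were drawn with matplotlib 3.10.9. Some genes, 1 motif and 1 relation at PND540 that were analysed are not reported here.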

Additional observations from a re-analysis of the deposited data

Results flagged for a closer look

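Among 30 sets of values, each a ligand in a group of 4 or 5 libraries, 3 held a library whose gap to the nearest other exceeded the critical share of the group's range (Dixon's test). Chance passes that test in about 1 of 20 groups if values are normally distributed, which CPM off the log scale need not be. Ccl2 in CTR replicate 5 of PND540 stood at 4.61 CPM, and the other 4 libraries at 0.419 to 0.702 CPM. Cxcl13 in CTR replicate 1 of PND540 stood at 18.7 CPM, and the others at 0.313 to 2.05 CPM. Cxcl2 in CTR replicate 2 of PND21 stood at 0.126 CPM, from 4 counts, and the other 3 libraries at 0. With the others tied at 0, any count would have passed and the rate of 1 in 20 does not hold. That flag therefore says nothing about Cxcl2.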

How the results depend on the processing

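Of the 4 calls of a ligand, all with age, that of Ccl5 in GLLP was the only one that passed under every alternative run. Between the diets at PND21, 166 genes were called, against 650 with library size alone, 972 with DESeq2, 3490 with limma voom, 40 in the joint fit of 16 libraries, and 62 to 1509 with a library left out, the highest without GLLP replicate 2. Of the ligands there, library size alone called 1, DESeq2 1 and limma voom 4, and the cause was not tested. At PND540 DESeq2 called 2 genes and edgeR 0, where 0.833% of genes had an unadjusted p under 0.05 by edgeR. With age in CTR 4117 genes were called, against 7460 with limma voom, 3040 to 6574 with a library left out, the highest without replicate 5 of PND540, and 6987 without CTR replicates 1 and 5. For the interaction 13 were called, against 46 with DESeq2, 44 with limma voom, and 7 to 16 with a library left out. Ligands called with age in CTR were 2, against 1 with RLE size factors, 1 with library size alone, 0 with the filter at 1 CPM, which drops Cxcl1 and Cxcl13 from the test, and 0 to 2 with a library left out. In GLLP 7 were called by limma voom, and 1 to 3 with a library left out. Scaled by library size only, the median of all genes went from -0.0038 to 0.14 at PND21, from 0.07 to -0.048 with age in CTR and from 0.019 to -0.16 with age in GLLP. With age in GLLP such scaling called 1965 genes higher and 2916 lower, against 2611 and 2341.

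Replicate numbers did not pair the libraries: same-numbered libraries had correlations of -0.14 to 0.15 between the diets at PND21, -0.17 to 0.30 at PND540, and -0.17 to 0.15 between ages. With the replicate block, 27 genes were called at PND21, Ccl2 with age in CTR was -1.20 (adjusted p = 0.0262), Cxcl1 there was not called (adjusted p = 0.151), and Cxcl9 with age in GLLP was called lower (adjusted p = 0.0374). Signs turned under the block for Ccl2 between the diets at PND540 (0.41) and for the interaction of Ccl2 (0.04) and Ccl21 (0.012).

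Other values changed sign, none of them called with all libraries. Between the diets at PND21 these were Ccl21 (-0.33 with limma voom, -0.10 to 0.46 with a library left out) and Cxcl12 (0.089 with library size alone, 0.11 with limma voom, -0.16 to 0.084). At PND540 Ccl2 ran from -1.14 to 0.66, Ccl21 from -0.18 to 0.50 (-0.065 with limma voom) and Cxcl13 from -2.17 to 0.54. Without CTR replicates 1 and 5 they were 0.56, -0.039 and 0.24, Ccl19 was 0.18 and Cxcl10 -0.0091. With age in CTR Ccl2 was -0.21 with library size alone, -1.05 with limma voom, -1.11 without CTR replicates 1 and 5 and -1.22 to 0.30 with a library left out, and Cxcl12 was -0.069 with library size alone and -0.078 to 0.12. In GLLP Ccl21 was 0.17 with limma voom and -0.66 to 0.03. The interaction ran from -1.77 to 0.017 for Ccl2, from -0.40 to 0.29 for Ccl21 (0.32 with limma voom) and from -1.79 to 0.87 for Cxcl13 (0.59 without CTR replicates 1 and 5). For r, Cxcl9 with Cxcl10 turned to -0.52 and Ccl2 with macrophage markers to -0.50 without the 2 farthest libraries, and the latter to -0.048 without CTR replicate 5, while Cxcl13 with Ccl19 turned to -0.0018 without CTR replicate 1 and Ccl19 with Ccl21 to -0.36 without GLLP replicate 2. The causes were not tested. Depth limited Cxcl2 and, at PND21, Ccl19 and Cxcl13, which stood at 18 counts or fewer in each of those libraries.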
